A study of Mus musculus with 31 samples.

Results

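The S100 calcium-binding proteins are a family of small EF-hand proteins, and 8 of their genes (S100a1, S100a4, S100a6, S100a8, S100a9, S100a10, S100a11 and S100a13) are described here in single immune cells of the mouse lung. They were taken by symbol from 17 S100 symbols among 47069 genes in the deposited tables. The genes were chosen by their measured FPKM in these same cells, and the main set of cells was selected on Lyz2 FPKM, so levels and joint presence are given as a description with no test. The data are 31 single-cell transcriptomes of 1 group: lung cells of adult Csf1r-GFP reporter mice of the B6 strain, 10 weeks old, taken from the right lobes 7 days after a sham thoracotomy in which the chest was opened. The label gives the sorted cells as CD45+, CSF1R-GFP+, F4/80+ and "Ly6G" macrophages, with no sign after Ly6G, and it ties no cell to an animal. The 31 cells are therefore treated as 1 sample with no replicate animals, the group has no comparison condition here, and cells are not replicates of a condition.

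S100 proteins usually work as dimers: when calcium binds, they open a hydrophobic face and attach to partners such as annexins and non-muscle myosin, which link them to membranes and the cytoskeleton. S100A10 is the exception that has lost calcium binding and sits permanently in a complex with annexin A2. Several members also leave the cell and act as danger signals. S100A8 and S100A9 together form calprotectin, a major cytosolic protein of neutrophils and of classical monocytes, while S100A4 and S100A6 are known from migrating myeloid cells and fibroblasts.

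All 8 genes lie on chromosome 3 of GRCm38, within 3054 kb. In GENCODE M21 order, S100a1 (ENSMUSG00000044080) spans 90511034 to 90514392 on the minus strand and S100a13 (ENSMUSG00000042312) spans 90514435 to 90524581 on the plus strand. S100a4 (ENSMUSG00000001020) follows at 90603771 to 90606045 and S100a6 (ENSMUSG00000001025) at 90612882 to 90624181, both on the plus strand. S100a8 (ENSMUSG00000056054, plus strand) lies at 90668978 to 90670035 and S100a9 (ENSMUSG00000056071, minus strand) at 90692632 to 90695721. S100a11 (ENSMUSG00000027907) lies at 93520488 to 93526287 and S100a10 (ENSMUSG00000041959) at 93555080 to 93564643, both on the plus strand. S100a1 and S100a13 are thus head to head, with 42 bases between them in GENCODE and 104 bases between their RefSeq starts, and S100a4 and S100a6 are read in the same direction, with S100a5, which is not among the 8, between them.

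The promoter windows below are shown because S100a4 and S100a6 had the most similar levels across cells of all member pairs, S100a11 was the member found in most cells, and S100a1 and S100a13 start on either side of 1 short stretch. Each of the first 3 is the 250 bases before the start, 5' to 3' on the gene's strand, from RefSeq on GRCm38.p6. Capitals mark motifs searched on both strands. The TATA box was searched as TATAAA. The GC box was searched as GGGCGG. The AP-1 site was searched as TGANTCA. None of these 3 overlaps another in the windows shown. The fourth line is the plus strand between the RefSeq starts of S100a1 and S100a13, chr3:90514331-90514434.

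S100a4, chr3:90603520-90603769: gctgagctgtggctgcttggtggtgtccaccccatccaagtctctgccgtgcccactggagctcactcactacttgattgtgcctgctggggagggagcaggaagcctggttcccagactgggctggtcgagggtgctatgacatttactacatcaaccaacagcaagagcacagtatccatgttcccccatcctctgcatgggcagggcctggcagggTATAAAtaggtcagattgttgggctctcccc
S100a6, chr3:90612644-90612893: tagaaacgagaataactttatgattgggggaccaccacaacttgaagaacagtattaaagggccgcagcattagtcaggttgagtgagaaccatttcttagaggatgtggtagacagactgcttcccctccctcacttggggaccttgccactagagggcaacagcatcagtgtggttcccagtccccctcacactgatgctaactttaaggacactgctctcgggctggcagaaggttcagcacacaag
S100a11, chr3:93520246-93520495: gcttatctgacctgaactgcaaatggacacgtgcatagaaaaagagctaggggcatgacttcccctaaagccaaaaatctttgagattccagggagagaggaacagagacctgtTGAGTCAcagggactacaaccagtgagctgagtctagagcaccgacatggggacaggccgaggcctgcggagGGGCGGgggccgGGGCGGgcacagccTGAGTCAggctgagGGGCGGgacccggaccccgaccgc
S100a1 to S100a13: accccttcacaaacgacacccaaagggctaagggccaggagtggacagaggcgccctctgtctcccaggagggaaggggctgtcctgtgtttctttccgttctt

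The S100a4 window holds 1 TATAAA, which begins 31 bases before the start, and no GC box or AP-1 site. The S100a6 window holds none of these 3 motifs, and neither does the stretch between S100a1 and S100a13. The S100a11 window holds 3 GC boxes and 2 AP-1 sites and no TATAAA. Of 32851 RefSeq promoter windows of the same length, 12.4% hold TATAAA, 32.7% hold GGGCGG and 6.75% hold TGANTCA, so the GC box alone is common. RefSeq entries were matched for 7 of the 8 genes, all but S100a10. A match of letters is a description of the window, and no factor's binding was measured.

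Lyz2, the gene of lysozyme M, is a highly expressed gene of monocytes and macrophages. It stood at 1000 FPKM or more in 20 cells, called Lyz2-high here, and below that in 11 other cells. FPKM is a fragment count divided by transcript length and by library depth, so genes can be set side by side within a cell. The cell just inside the limit had 1229 FPKM of Lyz2 and the cell just outside it had 553 FPKM. The Lyz2-high libraries held 521492 to 4059833 counts (median 1591648), with 87.4 to 95.6% of counts on nuclear protein-coding genes. The other libraries held 120835 to 1592301 counts (median 413337), an overlapping range, and in all of them but 1 the coding share was 32.8 to 61.6%. That 1 library, from cell F11, had a coding share of 87.9% and Lyz2 at 0. Library make-up thus moves with the Lyz2 limit, and its part in the difference between both sets was not tested. Of the genes named by the sort, Ptprc (CD45) was present in 19 of 20 Lyz2-high and 5 of 11 other cells, Csf1r in 20 and 7, Adgre1 (F4/80) in 15 and 1, and Ly6g in 7 and 0.

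Presence of a gene means 1 FPKM or more. The Lyz2-high cells held a median of 5 of the 8 S100 genes, with a range of 2 to 6, and the other cells a median of 0 with a range of 0 to 6. In 6 Lyz2-high cells 6 of the genes were present, in 5 cells 5, in 2 cells 4, in 5 cells 3 and in 2 cells 2. Among the other cells, 6 held none, 2 held 1, 1 held 2, C4 held 4 and F11 held 6. The summed level of the 8 genes had a lowest, median and highest value of 382, 10880 and 29675 FPKM in Lyz2-high cells, and a median of 0 and a highest value of 10352 FPKM (F11) in the other cells. In the median Lyz2-high cell the 8 genes made up 0.976% of all FPKM, and in the highest 2.53%. Of the 8 genes 6, that is S100a1, S100a4, S100a6, S100a10, S100a11 and S100a13, were present in at least 50% of the Lyz2-high cells, where 5.76% of 21624 nuclear protein-coding genes were. With the Lyz2 limit at 100 FPKM, which gives 25 cells, the number was 4, with S100a1 and S100a10 each in 44% of cells. The genes were chosen with these levels known, so nothing is read from their share.

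**Figure D1:**
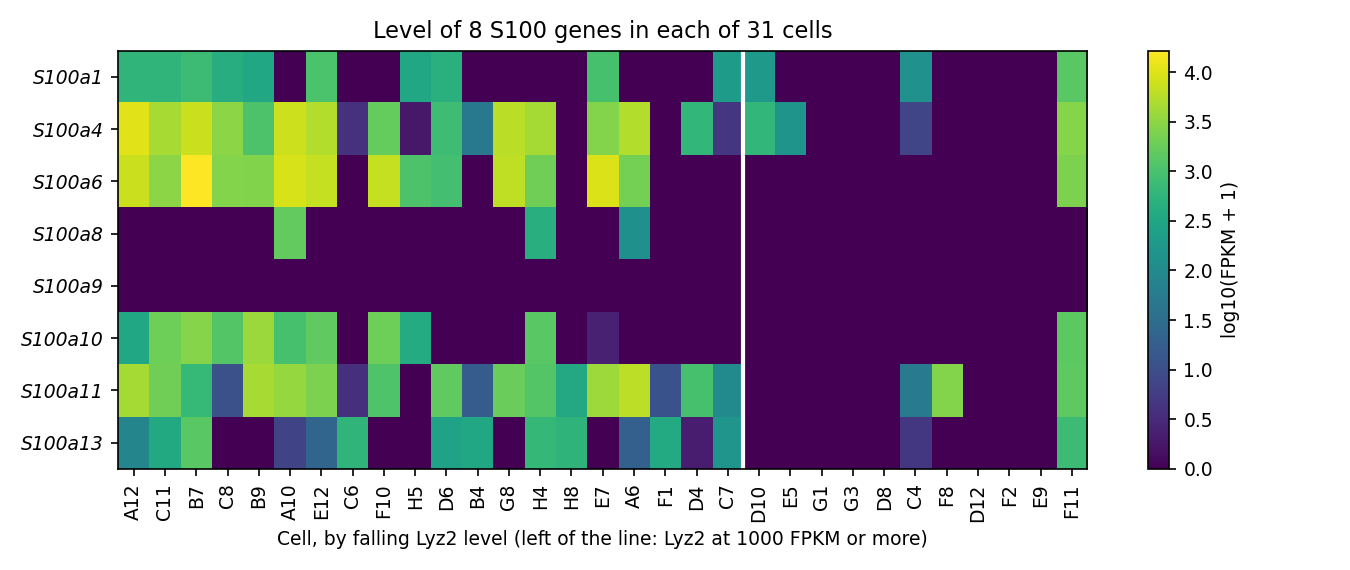
Level of each of the 8 S100 genes (rows) in each of the 31 cells (columns), as log10(FPKM + 1) by colour, with cells ordered by falling Lyz2 level and the white line at 1000 FPKM of Lyz2. S100a4, S100a6 and S100a11 fill most columns left of the line, S100a9 is dark in every cell, and of the cells right of the line F11 holds 6 genes and 6 cells hold none.

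S100a11, whose protein binds annexin A1, was the gene found most often, in 19 of 20 Lyz2-high cells (95%, exact Clopper-Pearson 95% interval 75.1 to 99.9%, counting error over cells only). Its lowest, median and highest values were 0, 1196 and 6176 FPKM in Lyz2-high cells, against 2687 FPKM in F8, 1476 in F11, 56.3 in C4 and 0 in the other 8 cells. Presence hides a wide range, since 15 of the 20 Lyz2-high cells were at 50 FPKM or more. The lowest cell with any S100a11, C6, had 2.85 FPKM, from 1 count. The 1 Lyz2-high cell without it, H5, was the deepest, with 4059833 counts.

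S100a4, also called metastasin, binds non-muscle myosin IIA. It was present in 17 of 20 Lyz2-high cells (85.0%, interval 62.1 to 96.8%), with a lowest, median and highest value of 0, 2187 and 10444 FPKM. Among the other cells it stood at 2855 FPKM in F11, 608 in D10, 151 in E5 and 6.5 in C4, and at 0 in the remaining 7. Low values were few: B4 had 49.5, C7 3.62 and C6 2.97 FPKM, and every other Lyz2-high cell with S100a4 had 623 FPKM or more. The values in C7 and C6 rest on 1 count each. The 3 Lyz2-high cells below 1 FPKM (H5, H8 and F1) had libraries of 2568955 to 4059833 counts, against 521492 to 3526674 counts in the 17 cells with S100a4.

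S100a6, calcyclin, binds annexins and the calcyclin-binding protein. Of the 20 Lyz2-high cells 14 held it (70.0%, interval 45.7 to 88.1%), and it had the highest single value of the family, with a lowest, median and highest of 0, 2388 and 16396 FPKM. Among the other cells F11 had 2453 FPKM and the remaining 10 had 0. S100a6 was either high or at 0: the lowest Lyz2-high cell with it had 913 FPKM, and B4, C6, C7, D4, F1 and H8 had none. These 6 libraries held 767318 to 3183172 counts (median 1745190), against 521492 to 4059833 (median 1433691) in the 14 cells with S100a6. Ranked by FPKM among all genes of its cell, S100a6 came at place 6 in B7 and S100a4 at place 10 in A12.

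S100a10 (p11), the annexin A2 partner, was present in 11 of 20 Lyz2-high cells (55.0%, interval 31.5 to 76.9%), with a lowest, median and highest of 0, 163 and 3793 FPKM. Among the other cells only F11 held it, at 1424 FPKM, and the remaining 10 had 0. In the cells that held it the median was 1348 FPKM, and E7 alone was near the limit with 1.41 FPKM, from 1 count.

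S100a1, best known from heart muscle where it acts on calcium release and uptake, was present in 10 of 20 Lyz2-high cells (50%, interval 27.2 to 72.8%). Its lowest, median and highest values were 0, 104 and 1056 FPKM, and the cells with it had at least 209 FPKM. Among the other cells F11 had 1377 FPKM, D10 191 and C4 136, and the remaining 8 had 0. The level in F11 was above that of every Lyz2-high cell.

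S100a13 takes part in the export of proteins that lack a signal peptide, among them fibroblast growth factor 1 and interleukin 1 alpha. It was present in 14 of 20 Lyz2-high cells (70.0%, interval 45.7 to 88.1%), as often as S100a6 but at lower levels, with a lowest, median and highest of 0, 52.7 and 1375 FPKM. Among the other cells F11 had 767 FPKM and C4 3.89 FPKM, which rests on 1 count. All 6 Lyz2-high cells without S100a6 held S100a13: C6 had 571, H8 546, F1 372, B4 321, C7 156 and D4 1.1 FPKM. The value in D4 also rests on 1 count.

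S100a8, one subunit of calprotectin, was found in 3 of 20 Lyz2-high cells (15%, interval 3.21 to 37.9%): A10 had 1594, H4 461 and A6 131 FPKM, from 1132, 486 and 44 counts. It was at 0 in the 11 other cells. S100a9, the other calprotectin subunit, had 0 counts in all 31 cells, the 3 cells with S100a8 included (exact interval 0 to 11.2% of cells). An approximate upper limit for a gene found in 0 of 31 cells, 3 divided by the number of cells, was 9.68%. The 3 cells also held Ly6c2 (7311, 1397 and 48.6 FPKM in A10, H4 and A6), Plac8 and Chil3. The neutrophil granule genes Retnlg, Ltf, Lcn2, Camp and Ngp were at 0 in these 3 cells, Ly6g was at 24.5 FPKM in H4 and 10.9 in A6, and Mmp8 was at 350 FPKM in H4. Csf3r, the receptor for granulocyte colony-stimulating factor and also on the neutrophil list, was at 174 FPKM in A10, the cell with most S100a8.

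By median level in Lyz2-high cells the order was S100a6, S100a4, S100a11, S100a10, S100a1 and S100a13, with S100a8 and S100a9 at 0. S100a4 came before S100a6 with Lyz2 at 5000 FPKM (2877 against 2671 FPKM) and in the cells with a coding share of 80% or more (2732 against 2453 FPKM). With Lyz2 at 100 FPKM the medians of S100a10 and S100a1 were 0, below the 6.42 FPKM of S100a13. The quartile ranges overlapped for each pair of neighbours in that order: 0 to 6925 FPKM for S100a6, 38.1 to 5313 for S100a4, 78.4 to 2666 for S100a11, 0 to 1388 for S100a10, 0 to 492 for S100a1 and 0 to 363 for S100a13. Within cells, S100a4 was above S100a6 in 9 cells, below it in 9 and equal in 2. S100a6 was above S100a10 in 13 cells and below it in 1.

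**Figure D2:**
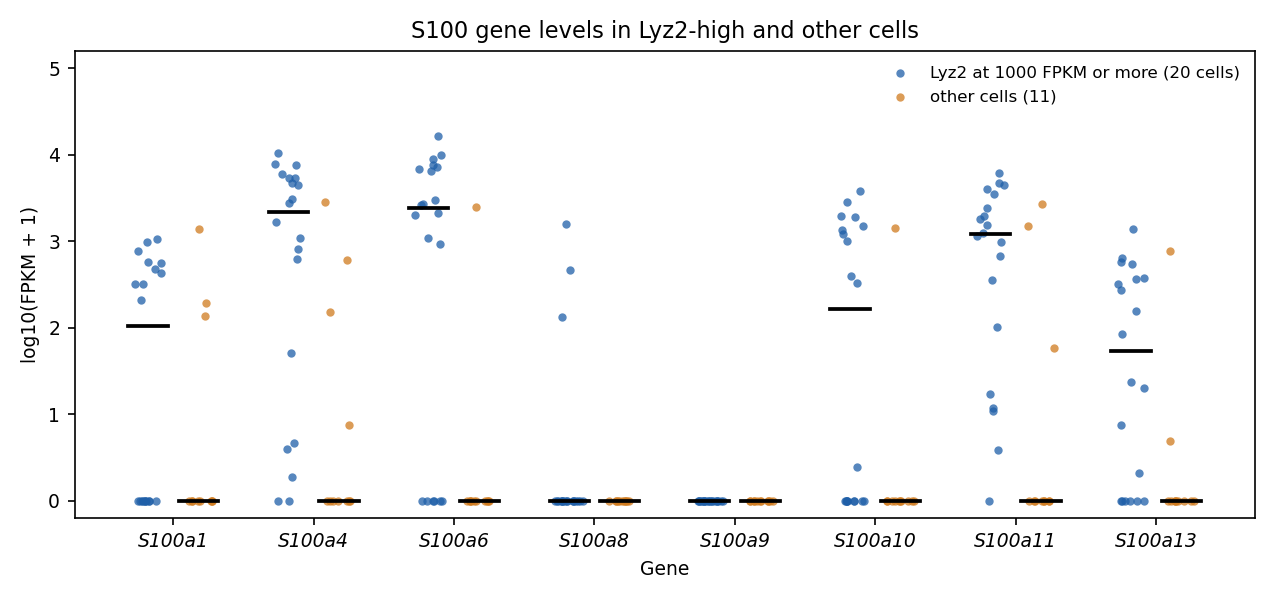
Level of each S100 gene in single cells as log10(FPKM + 1), with each point 1 cell (spread sideways for view), Lyz2-high cells on the left of each pair and other cells on the right, and the black bar at the median FPKM. S100a6 is either at 0 or at 913 FPKM and above in Lyz2-high cells, whereas S100a4 and S100a11 also have low values in between; the medians of the other cells are all at 0.

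S100a4 and S100a6 went together most closely. In Lyz2-high cells 13 held both, 4 only S100a4, 1 only S100a6 and 2 neither, and Spearman's rho of their levels was 0.84 over 20 cells. All cells carry 1 group label with no animal named, and many values tie at 0, so rho mixes presence with level: over the 13 cells with both genes it was 0.57. With total counts per library rho was -0.26 for S100a4 and -0.19 for S100a6. Both genes were higher in cells with more Lyz2, with rho of 0.53 and 0.58 with Lyz2 FPKM.

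S100a10 was present only where S100a6 was: 11 Lyz2-high cells held both, 3 held S100a6 alone, none held S100a10 alone and 6 held neither (rho 0.66). Over the 11 cells with both genes rho was -0.13, and the value over 20 cells includes the cells tied at 0. S100a11, found in 19 of 20 cells, was present in all 17 cells with S100a4 and in 2 more. Their rho was 0.67, and 0.55 over the 17 cells with both. S100a6 and S100a11 were both present in 13 cells, with S100a6 alone in 1 and S100a11 alone in 6 (rho 0.58, but 0.02 over the 13 cells with both). S100a4, S100a6, S100a10 and S100a11 were all present in 10 of 20 Lyz2-high cells and in 1 of 11 other cells (F11), and none of the 4 was present in 0 and 6 cells. S100a1 was with S100a6 in 9 of its 10 cells (rho 0.56, and 0.78 over those 9) and with S100a4 in 9 (rho 0.36, and 0.67 over those 9).

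S100a13 had rho values between -0.30 and 0.11 with the other S100 genes found in Lyz2-high cells. S100a1 and S100a13, whose starts are 104 bases apart in RefSeq, were both present in 6 Lyz2-high cells, S100a1 alone in 4, S100a13 alone in 8 and neither in 2 (rho -0.09). With S100a6 the numbers were 8 cells with both, 6 with S100a6 alone, 6 with S100a13 alone and none with neither (rho -0.30). Among the 6 with S100a13 alone, D4 had 1 count of it. All 14 cells with S100a13 also held S100a11, which was present in 19 of the 20 cells and so could miss few of them. At 50 FPKM or more, 10 cells held S100a13 and 7 of these also held S100a11. The levels of S100a11 and S100a13 gave a rho of -0.26. That rho was -0.57 over the 14 cells with both, -0.59 without the shallowest and the deepest cell and 0.22 with Lyz2 at 100 FPKM. Over all 31 cells rho was 0.86 for S100a4 with S100a6, 0.25 for S100a1 with S100a13 and 0.16 for S100a6 with S100a13. That set adds the low-coding libraries in which most of these genes were at 0.

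**Figure D3:**
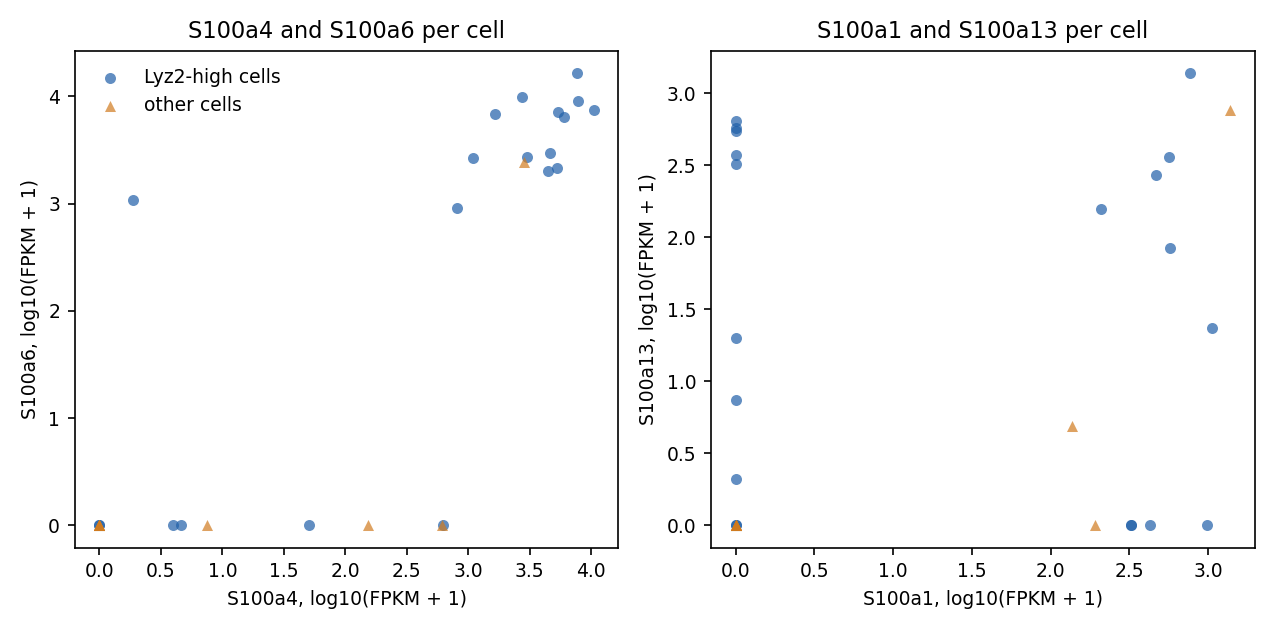
Levels of S100a4 against S100a6 (left) and of S100a1 against S100a13 (right) per cell, both axes as log10(FPKM + 1), with circles for the 20 Lyz2-high and triangles for the 11 other cells. On the left 13 Lyz2-high cells lie together in the upper right corner. On the right 8 Lyz2-high cells with S100a13 alone lie on the vertical axis. The horizontal axis holds the cells with S100a1 alone, 4 Lyz2-high cells and 1 other cell (D10).

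**Figure D4:**
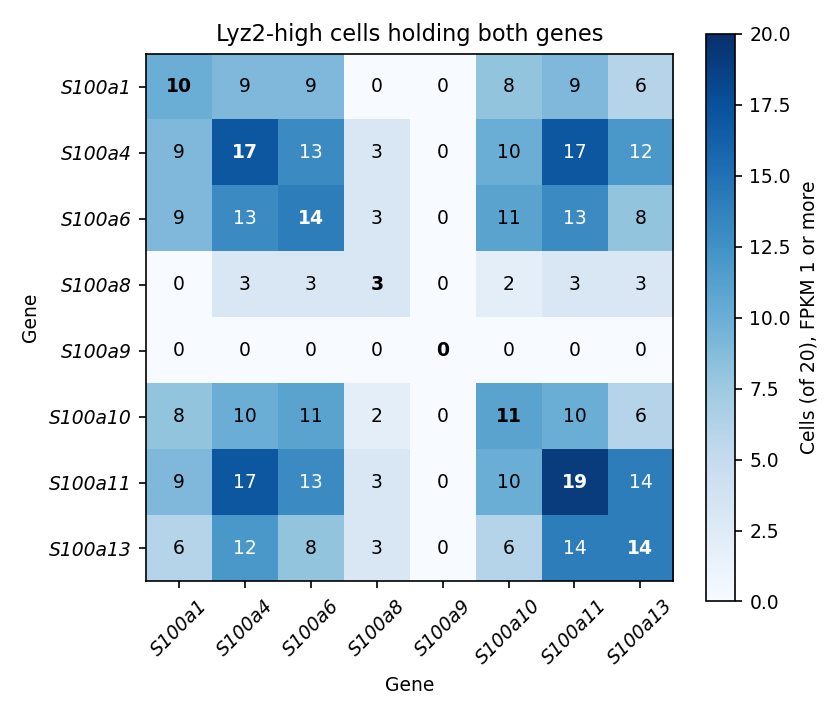
Number of Lyz2-high cells, of 20, in which both the row gene and the column gene were at 1 FPKM or more, with the cells holding each gene on the diagonal. The block of S100a4, S100a6 and S100a11 has 13 to 17 shared cells off the diagonal, S100a8 shares its 3 cells with S100a4, S100a6, S100a11 and S100a13 and none with S100a1, and the S100a9 row is 0.

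The genes with levels most like each S100 gene were ranked by rho over the 20 Lyz2-high cells among 3677 genes present in at least 5 of them. For S100a4 they were S100a6 (0.84), Mgst1 (0.83), a microsomal glutathione transferase, and Tmsb10 (0.81), a thymosin that binds actin monomers. For S100a6 they were Emilin2 (0.86), an extracellular matrix glycoprotein, S100a4 (0.84) and Cd44 (0.83), the hyaluronan receptor. For S100a10 they were Card19 (0.80), Rpl3 (0.74) of the large ribosomal subunit, and Emilin2 (0.72). For S100a11 they were Bcl2l11 (0.84), which encodes the pro-apoptotic protein BIM, Plac8 (0.77) and Ehd1 (0.75), which acts in endocytic recycling. S100a1 was most like Psma1 (0.78) of the proteasome core, Tiam1 (0.75), a Rac exchange factor, and Ap2a2 (0.74) of the clathrin adaptor AP-2. S100a13 was most like Clec4a2 (0.85), a C-type lectin receptor of myeloid cells, and the 2 unnamed loci Gm44250 (0.75) and Gm42428 (0.70). Cd44 was present in 19 of the 20 cells, Tmsb10 in 18 and Mgst1 in 11, whereas Tiam1 and Gm44250 were present in 5.

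Marker genes of lung myeloid cells were ranked against the S100 genes over the Lyz2-high cells. Of 10 markers of classical monocytes, 7 had a rho of 0.5 or more with S100a4, 7 with S100a6, 5 with S100a10, 5 with S100a11, 0 with S100a1 and 0 with S100a13. Over all 3677 genes that share was 4.87% for S100a4, 4.11% for S100a6, 3.4% for S100a10, 4.32% for S100a11, 2.75% for S100a1 and 1.77% for S100a13. The median rho of the 10 markers was 0.69, 0.71, 0.50, 0.49, 0.20 and -0.12 for S100a4, S100a6, S100a10, S100a11, S100a1 and S100a13, where the median of all genes was 0.02 to 0.04. With S100a4 and S100a6, Ly6c2, the Ly6C antigen, gave 0.74 and 0.76, Plac8 gave 0.77 and 0.71, Hp (haptoglobin) gave 0.70 and 0.75, and Fn1 (fibronectin) gave 0.69 and 0.74. Ccr2, the chemokine receptor of monocytes that leave the marrow, gave 0.02 and 0.10.

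Interstitial macrophage markers ran the other way. Of 10 such genes 7 could be ranked, and 6 of these had a rho of -0.5 or less with S100a4, 6 with S100a6, 6 with S100a11 and 1 with S100a10. The share over all genes was 3.51% for S100a4, 3.21% for S100a6, 2.94% for S100a11 and 1.14% for S100a10. With S100a4 and S100a6, Apoe (apolipoprotein E) gave -0.87 and -0.82, Mrc1 (the mannose receptor) gave -0.80 and -0.73, and C1qa of complement C1q gave -0.78 and -0.68. C1qc with S100a11 gave -0.90. The median rho of the 7 markers was -0.76 with S100a4, -0.66 with S100a6, -0.68 with S100a11, -0.39 with S100a10, -0.39 with S100a1 and 0.28 with S100a13. The marker lists and these S100 genes were both picked with earlier results of these cells known, so the shares describe these cells only.

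The values per cell show the same split. C1qb was present in 6 Lyz2-high cells, in which S100a4 was 0 to 49.5 FPKM (median 1.91). In the 14 cells without C1qb, S100a4 was 623 to 10444 FPKM (median 4565). C1qb was picked with its values seen, and the share of all genes whose ranges part in this way was not counted. S100a6 had a median of 0 in the 6 cells with C1qb and of 4683 FPKM in the 14 without, with an overlap, since H5 held C1qb and 1085 FPKM of S100a6 and D4 held neither gene. S100a13 had a median of 346 FPKM with C1qb and 12.6 FPKM without, and its ranges of 0 to 571 and 0 to 1375 FPKM overlapped. In the 10 cells with Ly6c2, S100a6 was 2013 to 16396 FPKM (median 6737), against 0 to 6868 FPKM (median 0) in the 10 without. S100a4 was 1084 to 10444 FPKM (median 5329) with Ly6c2 and 0 to 4655 FPKM (median 26.6) without.

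**Figure D5:**
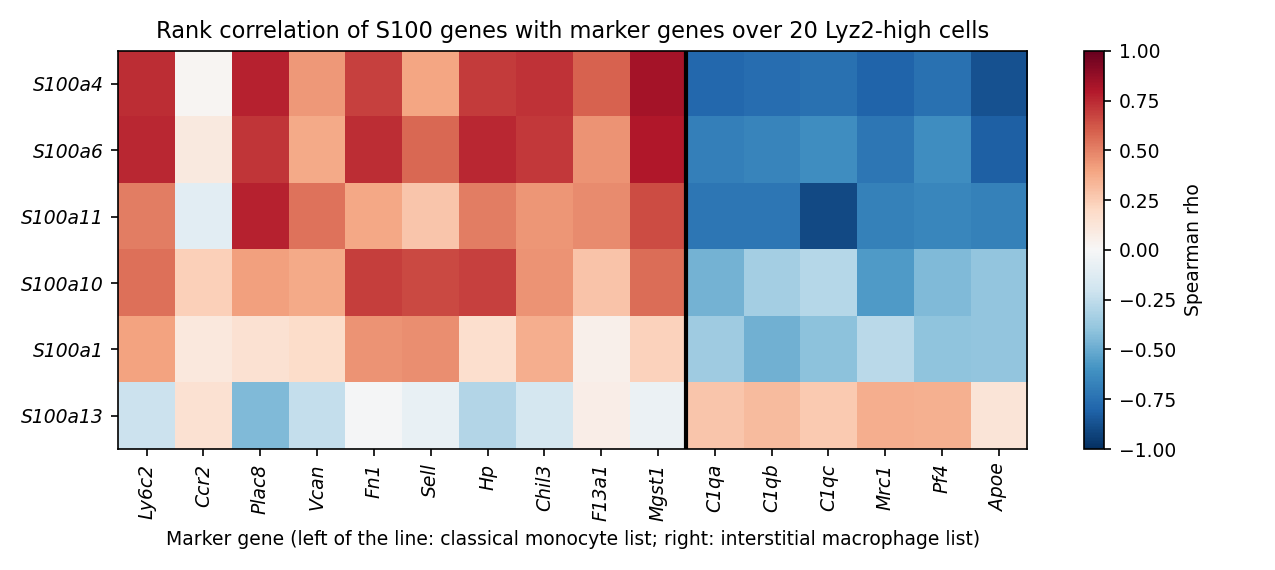
Spearman's rho, by colour from -1 (blue) to 1 (red), of 6 S100 genes (rows) with 10 classical monocyte markers (left of the line) and 6 interstitial macrophage markers (right of the line), over 20 Lyz2-high cells. The rows of S100a4, S100a6 and S100a11 are red on the left, except for Ccr2, and blue on the right, while S100a13 is pale throughout, from -0.44 for Plac8 to 0.36 for Mrc1 and Pf4.

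Other cell types that the gate could hold were checked by their markers. The alveolar macrophage genes Siglecf, Marco, Car4, Fabp1, Krt79, Plet1 and Pparg were at 0 in all 31 cells, and of that list Chil3, which is also on the classical monocyte list, could be ranked (rho 0.72 with S100a4). Ear2 of the same list was present in 3 Lyz2-high cells, up to 4258 FPKM, and in 2 other cells, up to 604 FPKM, and Ear1 was present in 1 cell of each set. The neutrophil genes Retnlg, Ltf and Lcn2 were likewise at 0 in all cells. The summed level of the 10 neutrophil markers was 0 to 406 FPKM (median 10.7) in Lyz2-high cells and 0.64 to 365 FPKM (median 64.8) in the other cells. Markers of nonclassical monocytes summed to 87.5 to 5354 FPKM (median 1536) in Lyz2-high cells and 0 to 1845 FPKM (median 54.2) in the other cells. Of that list Gngt2, a G-protein subunit, gave a rho of 0.59 with S100a4 and Cx3cr1, the fractalkine receptor, gave -0.70. S100a4 is also known from fibroblasts, and the list of epithelial, endothelial and fibroblast markers summed to 0 to 120 FPKM (median 0.18) in Lyz2-high cells and 0 to 342 FPKM (median 56.0) in the other cells. Dendritic cell markers reached at most 39.3 FPKM and lymphocyte markers at most 54.6 FPKM in a Lyz2-high cell, against 446 and 653 FPKM in a cell of the other set. Over the Lyz2-high cells, the number of markers present per cell was also ranked against S100a4. It gave a rho of 0.75 for the classical monocyte list, -0.75 for the interstitial list and 0.64 for the alveolar list. That alveolar number rests mainly on Chil3, present in 12 Lyz2-high cells and shared with the classical monocyte list. The rho was 0.43 for the neutrophil list and -0.06 for the epithelial, endothelial and fibroblast list. For the neutrophil list the same rho was 0.53 with S100a6, 0.50 with S100a10, 0.48 with S100a11, 0.41 with S100a1 and 0.002 with S100a13. Of 3 neutrophil markers that could be ranked, 2 had a rho of 0.5 or more with S100a11 (Ly6g 0.64, Csf3r 0.52). With S100a6 it was 1 marker, and with S100a4 it was 0. Over all genes that share was 4.32% for S100a11, 4.11% for S100a6 and 4.87% for S100a4. The part of any of these cell types in the S100 levels was not tested.

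S100 proteins act through partners, and these were measured in the same cells. Of 11 partner genes 5 were present in at least 50% of the Lyz2-high cells, where 5.76% of all nuclear protein-coding genes were. Ahnak, a giant scaffold bound by S100A10 and annexin A2, was present in 19, Anxa5 in 16, Anxa1 in 15 and Anxa2 in 14. Anxa2 ran with its partner S100a10 (rho 0.68) and also with S100a6 (0.71) and S100a4 (0.65), with a lowest, median and highest of 0, 647 and 2244 FPKM in Lyz2-high cells, against a median of 0 and a highest value of 704 FPKM in the other cells. Anxa1 and its partner S100a11 gave a rho of 0.51, below the 0.57 of Anxa2 with S100a11. Anxa2 gave 0.63 with S100a1, and Anxa5 gave 0.03 with S100a11. Myh9, the myosin heavy chain bound by S100A4, was present in 11 cells and gave -0.26 with S100a4. Of the cargo linked to S100A13, Il1a was present in 2 Lyz2-high cells and Fgf1 in none.

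Of 8 genes for receptors of extracellular S100 proteins, 3 were present in at least 50% of the Lyz2-high cells, against the same 5.76% of all genes: Cd14, a co-receptor of Toll-like receptors, in 17, Emb (embigin) in 14 and Bsg (basigin) in 11. Ly96, which encodes MD-2, came next with 5 cells. Tlr4, a receptor for S100A8 and S100A9, was present in 2 Lyz2-high cells, and Ager, which encodes the receptor RAGE, in none of the 31 cells. Of 16 other calcium-binding and calcium-handling genes 9 were present in at least 50%, again against 5.76% of all genes, among them the plasma membrane calcium pump Atp2b1 in 19, and Efhd2, Lcp1 and Lsp1 in 18 each. Calm2, a calmodulin gene, gave a rho of -0.69 with S100a4, and Aif1, an EF-hand protein of macrophages, gave -0.60 with S100a4 and 0.50 with S100a13.

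Reads of S100a4 and S100a11 could in part be shared with copies. Gm42674, a protein-coding locus on the same strand, shares 302 bases, 51.7% of S100a4 exon bases, and had at least 1 count in 1 cell, where it reached 6.35 counts. Gm12854 and Gm7665 hold 47.0% and 33.1% of the 31-base words of S100a11 transcripts, and reached at most 0.13 and 1.82 counts in any cell. No gene shared 5% or more of the words of the other 6 S100 genes.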

How the data were processed

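Single cells were captured on a Fluidigm C1 chip, and polyadenylated RNA was amplified with a SMARTer kit and made into Nextera XT libraries, per the labels' protocols. These libraries do not mark the strand and carry no molecular identifiers, so counts are reads, not molecules. CASAVA 1.8, Trimmomatic and RSEM with GRCm38 were used, per the submitters' processing notes. No label or header states their settings or the annotation release. The authors deposited a table of RSEM expected counts, of which 2.74% of values are not whole, and a table of FPKM. In the count table, which has 75 columns, 31 carry the labels' cell names, and 44 were not used. Ensembl IDs were matched to symbols for 46488 of 47069 genes, and coordinates come from GENCODE M21.

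FPKM was used as deposited. Presence was 1 FPKM or more, and shares have exact 95% intervals. Spearman's rho has no p-value, because the cells are 1 sample. The genes named are the 8 S100 genes, the 3 genes of highest rho for each S100 gene present in at least 5 Lyz2-high cells, and, from each partner, receptor and calcium list, the 4 genes with most cells; other genes named (such as marker genes) were chosen with their values seen, and some list genes are not reported here. The S100 genes, the marker lists and the Lyz2 limit were chosen with earlier results of these data known. Rank correlations were tested on simulated data. Other limits, scalings, cell sets and equal depth were tried. Python 3.11.15, numpy 2.4.6, pandas 2.3.3 and scipy 1.17.1 were used.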

Additional observations from a re-analysis of the deposited data

How the results depend on the processing

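The number of S100 genes present in at least 50% of the Lyz2-high cells was 6 in 7 of 8 alternatives and 4 with Lyz2 at 100 FPKM, and the median number per cell was 4 to 5 over all 8: presence at 5 or 50 FPKM or at 1 or 10 expected counts, thinning to 120829 counts, Lyz2 at 100 or 5000 FPKM, and a coding share of 80% or more. Of the shares of cells, 227 stayed within their interval, and 5 did not: S100a11 in 75% (at 50 FPKM and after thinning), S100a4 with S100a13 in 25% (50 FPKM), and S100a11 with S100a13 in 35% (50 FPKM) and 45% (thinned). The 40 median levels moved by no more than 1 SD or, in CPM, kept their rank, but the SDs are wide. The S100a1 median of 104 FPKM became 0 with Lyz2 at 100 FPKM and 209 at a coding share of 80%, the S100a10 median of 163 FPKM became 0 with Lyz2 at 100 FPKM and 358 with Lyz2 at 5000 FPKM, and S100a4 and S100a6 changed places with Lyz2 at 5000 FPKM and at a coding share of 80%. Of the correlations, 143 stayed within the range seen on leaving out each cell in turn and 46 moved. For S100a4 with S100a6 that range was 0.82 to 0.89, and the value of 0.84 became 0.80 with FPKM rescaled to equal sums, 0.81 at Lyz2 of 5000 FPKM, 0.80 as Pearson's r of log2(FPKM + 1) and 0.78 with a pseudocount of 0.1. With Lyz2 at 100 FPKM, which adds 5 cells, S100a11 with S100a13 gave 0.22 and S100a6 with S100a13 gave 0.01. Without the shallowest and the deepest cell S100a11 with S100a13 gave -0.59. The cause was not tested. Of the 18 genes named as most like an S100 gene, 5 were named again by Pearson's r of log2(FPKM + 1). No paired analysis was possible because all cells form 1 group. Depth limits the reading of a 0 in 1 cell: the gene was not detected there, which does not show that it was absent.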

Other observations

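The 9 other S100 genes were scarce in Lyz2-high cells. S100a7a, a gene of the skin-type S100 proteins, was present in 4 of 20 Lyz2-high cells at no more than 2.71 FPKM and in 10 of 11 other cells with a median of 14.1 and a highest value of 72.5 FPKM, from at most 24 counts. S100a3 was present in 1 Lyz2-high and 5 other cells and S100b in 0 and 2. S100a2, S100a5, S100a14, S100a16, S100g and S100z were present in no cell. S100a7a was thus found in more of the other cells, the set with low coding shares, than of the Lyz2-high cells. The part of library make-up in this was not tested.

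F11, the cell with a coding-rich library and no Lyz2, had 6 of the 8 genes at levels between 767 and 2855 FPKM, together with C1qb at 258 FPKM, Cd44 at 352 FPKM and Anxa2 at 704 FPKM, and it had no Ly6c2, Mgst1 or Apoe. Among the 6 Lyz2-high cells with C1qb none had S100a4 above 49.5 FPKM, whereas F11 had 2855 FPKM of S100a4 beside C1qb.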
